A study of Mus musculus with 6 samples.

Results

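The melanocyte pigment genes Tyrp1, Dct, Pmel, Mlana, Tyr and Mitf were followed across the Med1 KO dental tissues. They were taken by name as the genes by which pigment cells are usually recognised. These 6 genes were among 16593 genes with a named probe on the MouseRef-8 BeadChip, an Illumina array of bead-bound oligonucleotides, and they were read by 9 of its 25697 probes. Of the 6 genes, 4 were detected on at least 1 array, and Tyr and Mitf were detected on none.

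RNA came from the lower incisor of C57BL/6 mice at 4 weeks of age. KO mice carried loxP-flanked Med1 alleles (MED1 fl/fl) with a Cre transgene driven by the keratin 14 promoter, and CON mice were littermates with the same floxed alleles and no Cre. Dental tissue was taken at 3 positions along the incisor, the cervical loop (CL), which holds the dental epithelial stem cells, the zone of enamel secretion (Sec) and the zone of enamel maturation (Mat), and the tissues of 3 mice were pooled for each array. Each genotype had 1 array at each position, so a difference at a single position has no replicate check and no p-value. The keratin 14 promoter drives Cre in epithelial cells and their descendants, whereas melanocytes descend from the neural crest. The Mat tissue was the place where older KO mice grow abundant ectopic hair and CON mice have the enamel organ. In that older KO tissue the study's methods describe slightly pink or brown patches, which they call melanin-producing. The study's results also report induced genes of skin melanogenesis in KO. Per the study's methods, no hair was seen in the Mat tissue under the dissecting microscope in mice of this age. The study's results, however, describe a few hairs in KO incisors at 4 weeks. Equivalent tissue was taken from CON.

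Melanin is made inside melanosomes, the pigment organelles of melanocytes. Tyrosinase (Tyr) starts the pathway by oxidising tyrosine, and dopachrome tautomerase (Dct) and tyrosinase-related protein 1 (Tyrp1) act on later intermediates towards black-brown eumelanin. Pmel forms the fibrils on which melanin is laid down, Mlana is a small membrane protein of the early melanosome, and Mitf is the transcription factor that switches on the others. In skin, melanocytes sit in the growing hair bulb and pass melanosomes to the keratinocytes of the hair shaft.

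All 4 detected members were higher in KO than in CON at Sec and at Mat, where 11.7% and 12.6% of all genes considered were higher. The only arrays that detected Tyrp1, Pmel and Mlana were the Sec and Mat arrays of KO, a pattern shown by 1.72% of the 16593 genes. Tyrp1, Pmel and Mlana therefore could not have been called lower. Dct was detected on all 6 arrays and was 7.07-fold higher in KO at Sec and 5.34-fold higher in KO at Mat. At CL, Dct differed by less than 1.5-fold, and no other member was detected in either genotype.

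Mitf acts through the M-box, an 11-letter element, AGTCATGTGCT, known from the promoters of the tyrosinase family. The promoters that hold it are shown because they belong to the enzyme genes among the members, 1 of which was not detected here. The windows are the 250 bases before the start site of a RefSeq transcript in GRCm38.p6, read 5′ to 3′ on the gene's strand, with the element in capitals. Tyrp1 lies at chr4:80833963-80834212 on the plus strand, Dct at chr14:118052247-118052496 on the minus strand and Tyr at chr7:87493513-87493762 on the minus strand.
Tyrp1: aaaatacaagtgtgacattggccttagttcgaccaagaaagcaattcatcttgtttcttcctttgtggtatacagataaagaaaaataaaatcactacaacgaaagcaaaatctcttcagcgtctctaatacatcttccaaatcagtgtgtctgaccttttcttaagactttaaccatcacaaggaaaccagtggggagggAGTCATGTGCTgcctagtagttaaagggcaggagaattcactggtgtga
Dct: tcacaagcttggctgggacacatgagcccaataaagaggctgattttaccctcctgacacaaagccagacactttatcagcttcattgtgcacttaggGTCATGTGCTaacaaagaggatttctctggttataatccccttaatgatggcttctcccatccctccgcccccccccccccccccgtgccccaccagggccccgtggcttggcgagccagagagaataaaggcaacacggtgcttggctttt
Tyr: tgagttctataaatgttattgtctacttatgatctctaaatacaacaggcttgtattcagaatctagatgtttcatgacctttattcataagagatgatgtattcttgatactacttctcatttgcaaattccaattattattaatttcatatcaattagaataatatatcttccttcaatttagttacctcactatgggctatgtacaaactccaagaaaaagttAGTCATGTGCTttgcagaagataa
The complete element started 49 bases before the end of the Tyrp1 window and 24 bases before that of Tyr. The 11 letters searched for were read from the Tyrp1 window around the core TCATGTG, so the match in Tyrp1 was given beforehand. A window of C1qb held the same letters, and C1qb had log2 differences, KO minus CON, of -0.77 at Sec and -0.31 at Mat. The Tyrp1 window precedes a transcript that starts inside the annotated span of the gene, so its element lies downstream of the outermost start of Tyrp1. The Dct window held it without its leading A, GTCATGTGCT, 152 bases before the end of the window. Searched on both strands, AGTCATGTGCT was present in 7 of 32851 windows (0.0213%), GTCATGTGCT in 51 (0.155%) and its core TCATGTG in 1068 (3.25%). These motifs are nested, so each longer match is also a match of the shorter ones. The E-box CACGTG, which does not overlap them, was present in 6.02% of windows. The core was found in 3 of the 4 members with a window, and not in the 3 windows of Mitf. Pmel and Mlana are named only. Among the related genes described further on, the core was found in Slc24a5 and Trpm1 (2 of 12 genes of the melanosome), Hps1 (1 of 14 trafficking genes), Mc1r (1 of 11 receptors and ligands) and none of 8 regulators. A match describes letters in a window and is not a measured binding site.

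Intensities are given as deposited, before background subtraction, unless a log2 value is stated. A gene was called detected where the scanner software's detection p-value was under 0.01, and the dimmest detected probe on each array had an intensity of 181.6 to 203.6. A gene was called higher or lower where the difference reached 1.5-fold on background-corrected, quantile-normalised log2 values and the brighter array detected it. Where the gene was not detected on the dimmer array, its level there was replaced by that of the dimmest detected probe, and the difference is given as at least so many fold.

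Tyrp1 (chr4:80834123-80851736), an enzyme of eumelanin synthesis, had intensities of 132.6, 1029.9 and 1288.4 in KO at CL, Sec and Mat, against 117.3, 125.2 and 137.8 in CON. The KO arrays at Sec and Mat stood apart from the other 4, which lay at background. The difference was at least 12.4-fold at Sec (log2 3.63) and at least 16.1-fold at Mat (log2 4.01). Its other 2 probes read the same way, with 512.6 and 484.5 in KO at Sec, 916.1 and 733.3 in KO at Mat, and no more than 151 elsewhere.

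Dct (chr14:118012790-118052246), the tautomerase of the pathway, had intensities of 307.5, 3305 and 4331.5 in KO, against 229.3, 518.8 and 858.6 in CON at CL, Sec and Mat. It was brighter in KO at each position, and it was the only member that CON tissue also expressed above background. The log2 difference was 0.57 at CL, 2.82 at Sec and 2.42 at Mat. Within CON, Dct was 4.07-fold higher at Sec than at CL and 7.66-fold higher at Mat than at CL, differences of 1.5-fold or more that 6.58% and 17.1% of genes also showed.

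Tyr (chr7:87424771-87493512), which catalyses the step that limits melanin synthesis, had intensities of 129.6, 155.6 and 152.7 in KO, against 134.6, 123.3 and 127.2 in CON. None was detected, and the detection p-values nearest to the threshold were 0.198 and 0.109, in KO at Sec and Mat. Its 2 brightest arrays were those KO arrays, but no fold can be given below background. A transcript under the detection limit of the array cannot be told from an absent one.

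Pmel (chr10:128695888-128720238), the fibril protein, had intensities of 151, 1078.6 and 1713.7 in KO, against 134.5, 144.8 and 152.2 in CON. The difference was at least 13.2-fold at Sec (log2 3.72) and at least 22.3-fold at Mat (log2 4.48). A second probe gave 609.3 and 1212.6 in KO at Sec and Mat, with log2 differences of at least 2.72 and 3.91.

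Mlana (chr19:29697541-29708447), the melanosomal membrane protein, had intensities of 153.8, 1400.9 and 2226 in KO, against 155.8, 140.8 and 141.6 in CON. The difference was at least 17.5-fold at Sec (log2 4.13) and at least 29.3-fold at Mat (log2 4.87). The KO array at CL was as dim as the 3 CON arrays.

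Mitf (chr6:97807002-98021360), the regulator, had intensities of 147.4, 179.3 and 165 in KO, against 140.9, 133.6 and 132.1 in CON. It was detected on no array, like 41.3% of all genes. The KO arrays at Sec and Mat were again the brightest, with detection p-values of 0.0551 and 0.0439.

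**Figure D1:**
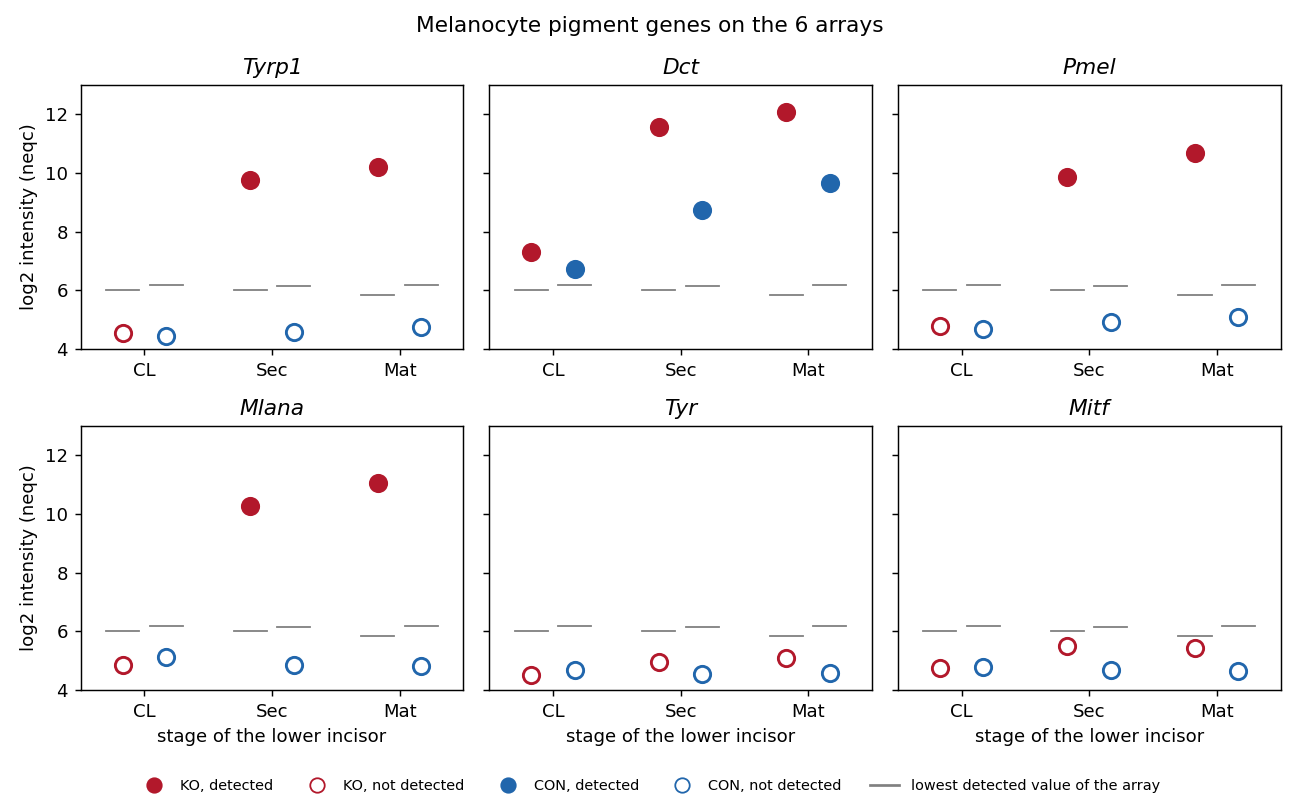
Levels of the 6 melanocyte pigment genes on each of the 6 arrays, as background-corrected log2 intensity, with KO left of CON at each position and 1 array per point. Tyrp1, Pmel and Mlana lie between 9.77 and 11.07 in KO at Sec and Mat and below the detection level elsewhere, and Dct is above background on all arrays.

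A larger signal in pooled tissue can come from more cells that express the gene, pigment cells or others, or from more RNA in each. These cannot be told apart here. All 5 ameloblast markers with a named probe were detected on all 6 arrays, which bears on the dental origin of the tissue and does not tell genotypes or positions apart. Med1 itself had a log2 difference of -0.54 between KO and CON at CL, of -0.63 at Sec and of -0.49 at Mat, and whether its probe lies in the deleted exons was not tested. Of the probes on an array, 46.1% to 49.8% were detected.

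Set against all genes, the differences of the members lay in the upper tail without being its end. By the fold rule, 4 of the 6 members were higher in KO at Sec, where 11.7% of 9073 genes considered were higher, and the same 4 were higher at Mat, where 12.6% of 9218 were. Tyrp1, Pmel and Mlana entered these counts only through the KO arrays on which they were bright, so they could not have been called lower. Dct ranked 142 from the top at Sec and 225 at Mat. The other 3 have lower bounds only, which is also true of other genes in the ranking, and their bounds stood at places 69 and 60 for Mlana, 86 and 79 for Pmel and 92 and 96 for Tyrp1. The size of these differences depended on background subtraction. On intensities without it, the log2 difference was 2.34 at Sec and 2.70 at Mat for Tyrp1, 2.42 and 3.14 for Pmel, 2.78 and 3.50 for Mlana, and 2.51 and 2.25 for Dct. At CL, none of the 6 was higher, against 1.81% of 8794 genes, and Dct ranked 169 there. Over all genes, the median log2 difference was -0.01 at CL, and at Sec and Mat it was -0.10 and -0.11.

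**Figure D2:**
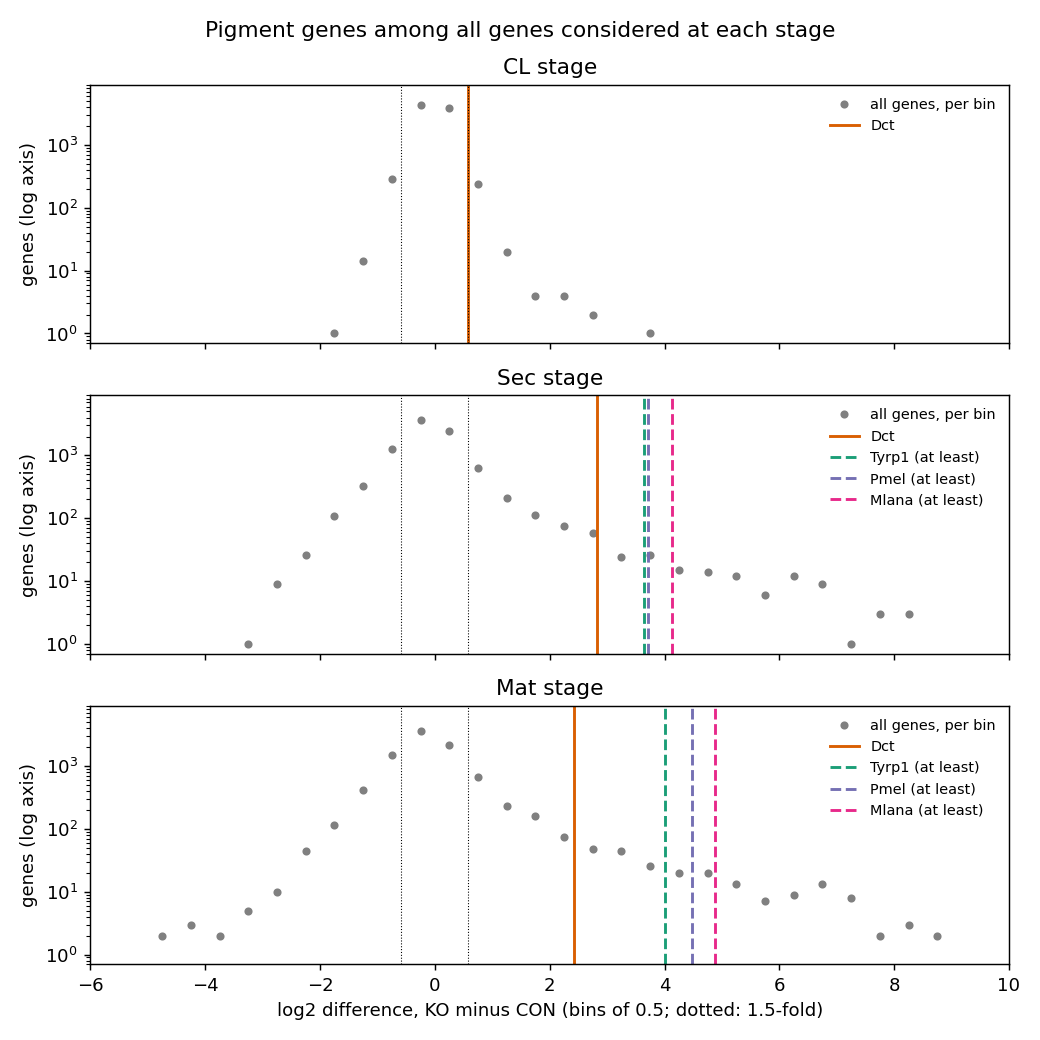
Distribution of log2 differences, KO minus CON, over all genes considered at CL, Sec and Mat, as the number of genes in bins of 0.5 on a log axis, with vertical lines at the detected pigment genes (dashed where the value is a bound) and dotted lines at 1.5-fold. Dct stands at 0.57 at CL, and the 4 members stand between 2.82 and 4.13 at Sec and between 2.42 and 4.87 at Mat, with other genes still further out.

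Along the incisor, the pigment genes of KO tissue were low at CL and high from Sec onwards. Dct was 19.3-fold higher at Sec than at CL and 27.4-fold higher at Mat than at CL within KO. Tyrp1, Pmel and Mlana were higher at Sec than at CL by log2 differences of at least 3.74, 3.83 and 4.24, and at Mat by at least 4.18, 4.65 and 5.04. Among all genes in KO, 14.5% were higher at Sec than at CL and 15.8% at Mat than at CL. The step onwards to Mat was smaller. Pmel and Mlana were 1.77-fold and 1.74-fold higher at Mat than at Sec, a difference of 1.5-fold or more shown by 7.54% of genes, whereas Tyrp1 and Dct differed by 1.35-fold and 1.42-fold and did not reach the threshold. In CON, Dct alone could be followed, and it was 1.88-fold higher at Mat than at Sec, where 13.3% of genes were higher. KO and CON at CL, Sec and Mat share no array, but the differences along the incisor share the CL array of their genotype.

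The stages were then used together, with limma, a linear model with moderated errors, fitted over the 9740 genes detected on at least 1 array. In the first model, the positions stood in for replicates of the genotype. The mean log2 difference was 3.58 ± 1.18 for Tyrp1, 1.94 ± 0.49 for Dct, 3.54 ± 1.16 for Pmel and 3.79 ± 1.38 for Mlana (SE, 3 arrays per genotype). None passed the test, each with a Benjamini-Hochberg adjusted p of 0.487 by limma, and unadjusted p-values lay between 0.0131 and 0.0457. No gene of the 9740 passed (0%), and 517 genes (5.31%) were higher at an unadjusted p under 0.05. Without the CL arrays, which leaves 2 arrays per genotype, all 4 members passed among 405 of the 9740 genes. Tyrp1, Pmel and Mlana had entered the 9740 only through those KO arrays at Sec and Mat. A positive difference was therefore built into their entry.

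The second model tested whether the KO minus CON difference at Sec and Mat exceeded that at CL. Tyrp1, Pmel and Mlana passed the detection filter only through the KO arrays at Sec and Mat, on which they were bright, so a positive difference was built into their entry. Under this filter the excess passed for Tyrp1 (log2 5.24 ± 0.44 SE, limma adjusted p = 0.0163), Pmel (5.12 ± 0.50, limma adjusted p = 0.0237) and Mlana (6.12 ± 0.53, limma adjusted p = 0.0181). These were 3 of 126 genes that passed (1.29%), all 126 of them higher. For Dct the excess was 2.04 ± 0.46, with a limma adjusted p of 0.23. Before moderation this model had 1 residual degree of freedom, the spread between the Sec and Mat differences. It used the measured dim values below the detection level, so its estimates for Tyrp1, Pmel and Mlana are not bounds. All 3 calls were lost on the authors' normalised intensities, where the smallest limma adjusted p of a member was 0.0568, without background correction, where it was 0.0605, and without a filter on detection, where it was 0.107. Among genes detected on at least 3 arrays, Tyrp1, Pmel and Mlana were left out by the filter.

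The genes that act upstream of the pigment genes were examined next. Of 11 regulators of the lineage, 9 had a named probe, Mitf included, and 4 were detected at Sec and at Mat. Of these, 2 were higher in KO at Sec and 3 at Mat, against 11.7% and 12.6% of all genes considered, with median log2 differences of 0.58 and 1.97, bounds taken at their value here and for the lists that follow. Tfap2b, which encodes an AP-2 transcription factor of neural crest and kidney, was detected only in KO at Sec and Mat, by log2 differences of at least 2.95 and 3.73. Its excess over CL was 5.03 ± 0.55 SE (limma adjusted p = 0.0316), the single call of the second model among the 4 regulators tested. Tfap2b also entered only through those KO arrays, and without the filter, or among genes detected on at least 3 arrays, the limma model called no gene at all, with 1012 and 410 genes at an unadjusted p under 0.05. Tfap2a, the AP-2 factor of neural crest and skin epithelium, was detected on all arrays, with log2 differences of 0.85 at Sec and 2.49 at Mat. Lef1, a Wnt effector also active in hair matrix, differed by 0.31 at Sec and by at least 1.46 at Mat. Zeb2 showed -0.57 and -0.53 and was not called. Pax3, Foxd3, Irf4 and Tfec were detected on no array, and Sox10 and Snai2 were not analysed here.

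Genes of the melanosome and of pigment transport behaved less uniformly. Of 15 with a probe, 6 of 11 detected were higher in KO at Sec, and 5 of 12 detected were higher at Mat, where 1 was lower. Over all genes, 11.7% were higher at Sec, and at Mat 12.6% were higher and 18.4% lower. The median log2 differences were 0.88 and 0.57. Oca2, an anion channel of the melanosome membrane, was detected only in KO, with log2 differences of at least 1.01 at Sec and 1.70 at Mat. Slc45a2, a melanosomal transporter, was also detected only in KO at Sec and Mat, but close to the limit, at no less than 0.06 and 0.56. Gpr143, the melanosomal receptor of ocular albinism, was detected only in KO at Mat, by at least 0.77. Slc24a5, Trpm1 and Mlph were detected on no array.

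Gpnmb, a melanosomal glycoprotein related to Pmel that macrophages and osteoclasts also make, had log2 levels of 6.69, 13.41 and 13.87 in KO at CL, Sec and Mat, against 6.74, 9.43 and 12.68 in CON. It was bright in CON as well at Mat, so its difference was 3.97 at Sec and 1.19 at Mat. Beside it, 1 of 6 detected macrophage markers was higher in KO at Sec and 3 were lower, and at Mat 1 of 5 was higher and 1 lower. Over all genes, 11.7% were higher and 15.2% lower at Sec, and 12.6% were higher and 18.4% lower at Mat. The part of macrophages in the Gpnmb signal was not tested. Among carriers of melanosomes and related vesicles, Rab27a differed by 1.14 at Sec and 0.22 at Mat, its motor Myo5a by 0.88 and 0.08, and Mreg by 1.59 and 0.47. Rab38 and Rab32, which deliver enzymes to the melanosome, differed by 1.25 and 0.33 at Sec and by 0.78 and 0.74 at Mat. The ion channel gene Tpcn2 was lower at Mat, by -1.28. None of the 12 genes of this list that were tested passed either limma model, and 2 were higher at an unadjusted p under 0.05 in the second, as 5.48% of all genes were.

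The shared trafficking complexes, BLOC-1, BLOC-2, BLOC-3 and AP-3, serve lysosome-related organelles in many cell types. Of 15 genes, none was higher in KO at any position, with 15 detected at Sec and 14 at Mat, and the median log2 differences were -0.09 and -0.20. Hps5, of BLOC-2, was lower at all 3 positions, with log2 differences of -1.49 at CL, a bound since KO did not detect it there, -1.24 at Sec and -1.21 at Mat. Its mean difference was -1.34 ± 0.17 SE, with a limma adjusted p of 0.487 and an unadjusted p of 0.000912. Hps1, of BLOC-3, was lower at Sec (-0.76) and Bloc1s4, of BLOC-1, at Mat (-0.64). Over all genes, higher calls were made for 1.81% at CL, 11.7% at Sec and 12.6% at Mat. Lower calls were made for 2% of genes at CL, 15.2% at Sec and 18.4% at Mat. Bloc1s2 was not analysed here.

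Receptors and ligands of the lineage numbered 11 with a named probe, of which 4 were detected at Sec and 5 at Mat. Of those detected, 3 were higher in KO at each and 1 was lower at Mat. The shares over all genes were 11.7% higher at Sec, 12.6% higher at Mat and 18.4% lower at Mat. Ednrb, the endothelin receptor of melanocyte precursors, had log2 levels of 9.69, 10.77 and 11.44 in KO, against 9.42, 9.21 and 9.45 in CON at CL, Sec and Mat. Its differences were 1.56 at Sec and 1.99 at Mat. Edn1, a ligand of endothelin receptors made by keratinocytes, differed by 1.54 and 1.26. Corin, a protease of the dermal papilla that modifies coat colour through the agouti pathway, differed by 1.80 and by at least 2.71. Bmp4 was lower at Mat (-0.70). Edn3 was detected only in KO at Mat and close to the limit, with no fold to give. Mc1r, Kitl, Met, Pomc, Hgf and Nrg1 were detected on no array, and Kit, Erbb3 and Asip were not analysed here. None of the 5 genes tested passed either limma model. In the second, 3 were higher at an unadjusted p under 0.05, as 5.48% of all genes were.

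**Figure D3:**
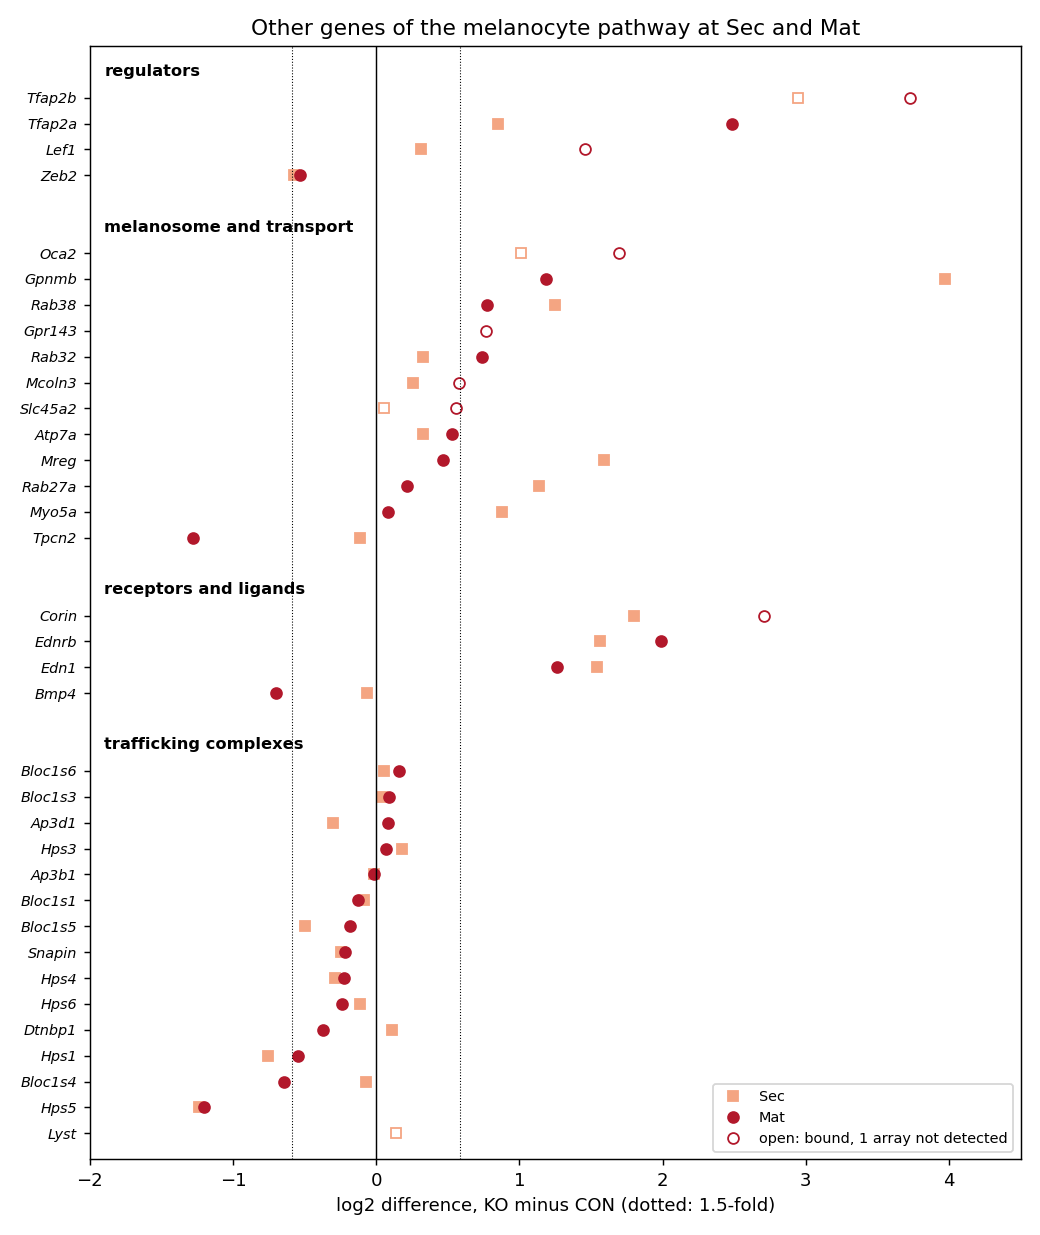
Log2 differences, KO minus CON, of detected regulators, melanosome genes, receptors and ligands, and trafficking genes at Sec (squares) and Mat (circles), 1 array per genotype at each; open symbols are bounds with 1 array not detected, and dotted lines mark 1.5-fold. Tfap2b and Gpnmb reach 3.73 and 3.97 at their higher position, and among the trafficking genes Hps5 (-1.24 and -1.21), Hps1 at Sec (-0.76) and Bloc1s4 at Mat (-0.64) lie below the lower dotted line.

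At both Sec and Mat, the summed hair, mast cell and muscle markers were higher in KO, as the pigment genes were. Glial sums were also higher in KO at both, with 7745.5 against 7326.7 at Sec and 7744.4 against 5355.7 at Mat. At Sec, however, Egr2 (log2 level 10.49 in KO and 6.98 in CON) was the only glial gene of 7 detected that was called higher. There, 2 glial genes were called lower, and the median log2 difference was -0.26. Over all genes at Sec, 11.7% were higher and 15.2% lower. Macrophage sums were lower in KO at Sec and nearly equal at Mat (3229 in KO and 3243.1 in CON). Ameloblast sums were higher in KO at Sec and lower at Mat. The background-corrected intensities of the 6 pigment genes summed to 287.4, 6154.4 and 9366.3 in KO at CL, Sec and Mat, against 241.6, 563.6 and 951 in CON. Hair cortex and matrix genes summed to 230.7, 68578.3 and 92559.3 in KO, against 228.6, 224.8 and 210.8 in CON. All 7 with a named probe were detected only in KO at Sec and Mat, as 1.72% of all genes were. Krt32, Krt81 and Krt85 were not analysed here. The hair genes thus had the same on and off arrays as Tyrp1, Pmel and Mlana.

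Mast cells, which share Kit and Mitf dependence with melanocytes, were represented by 9 genes. Their sums were 562.3, 1816.3 and 2495 in KO, against 546.2, 500.5 and 528.6 in CON, and 4 of 7 detected genes were higher at Sec and 5 of 6 at Mat, against 11.7% and 12.6% of all genes. The mast cell protease genes Cpa3 and Mcpt4 were detected only in KO at Sec and Mat, with log2 differences of at least 3.08 and 2.58 at Sec and 3.19 and 3.46 at Mat. Skeletal muscle genes summed to 4699.7, 37404.2 and 57055.3 in KO, against 3993.5, 5796.9 and 30800.5 in CON, with 8 of 8 higher at Sec and 5 of 8 at Mat, beside the same 11.7% and 12.6%.

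Schwann cells, which also descend from the neural crest and can share a precursor with melanocytes, were represented by 10 genes. The glial genes summed to 8723.8, 7745.5 and 7744.4 in KO, against 9027.4, 7326.7 and 5355.7 in CON. At Sec 1 of 7 detected was higher and 2 were lower, and at Mat 2 of 5 were higher. Over all genes considered, 11.7% were higher and 15.2% lower at Sec, and 12.6% were higher at Mat. Egr2, a transcription factor of myelinating Schwann cells that other cell types also express, had log2 levels of 6.78, 10.49 and 11.01 in KO, against 6.94, 6.98 and 6.22 in CON at CL, Sec and Mat. Its log2 differences were 3.51 at Sec and 4.80 at Mat, and its excess over CL had a limma adjusted p of 0.086. The myelin gene Mbp differed by -0.13 at Sec and 1.10 at Mat. Gfap, S100b and Cdh19 were detected on no array. Macrophage markers summed to 4618.7, 2895.4 and 3229 in KO, against 4053.1, 4723.8 and 3243.1 in CON, and ameloblast markers to 72272.1, 111112.3 and 90516.4 in KO, against 65573, 96373.4 and 108594.1 in CON. The part of these cell types in the pigment gene signal was not tested.

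**Figure D4:**
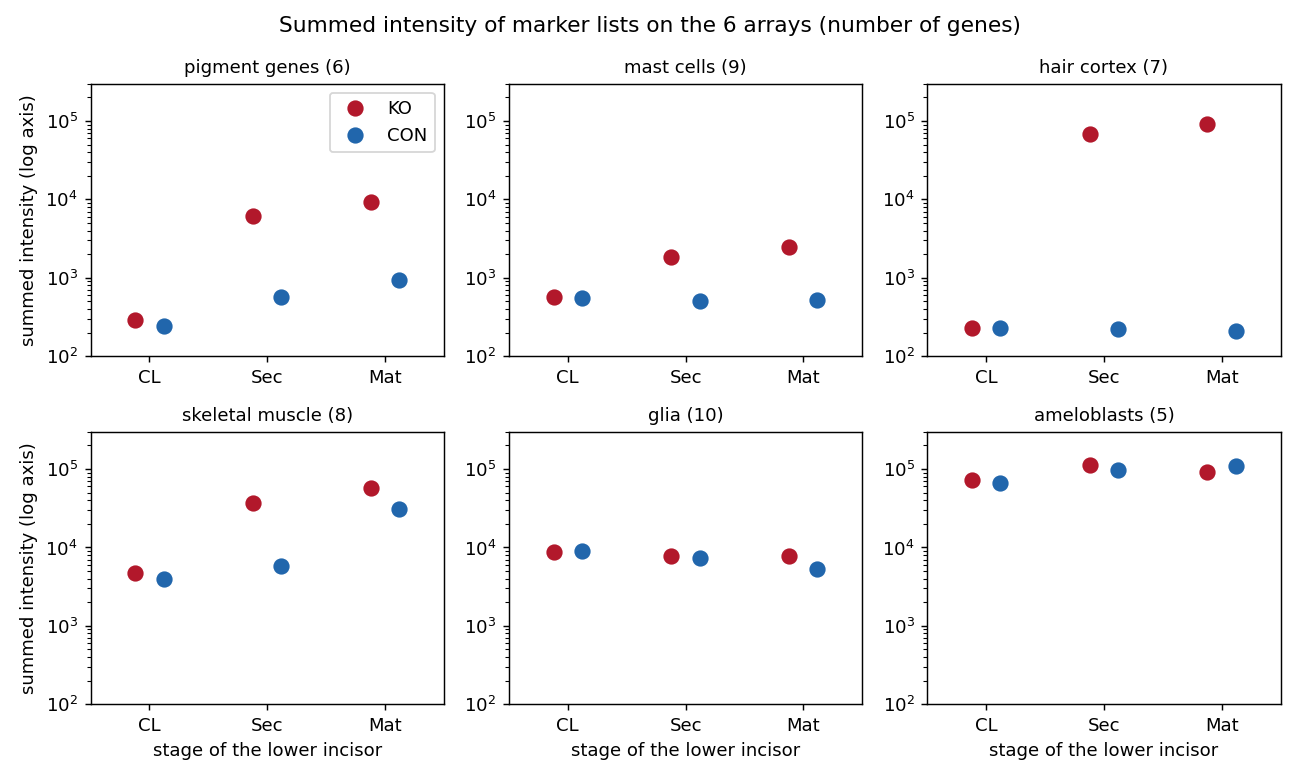
Summed background-corrected intensity (log axis) of marker lists on the 6 arrays, with KO left of CON at CL, Sec and Mat and the number of genes in each title. The pigment genes reach 6154.4 and 9366.3 in KO at Sec and Mat against 563.6 and 951 in CON. The hair cortex and mast cell lists are high on the same KO arrays. The glial list stays between 5355.7 and 9027.4. It reads 7745.5 and 7744.4 in KO at Sec and Mat, against 7326.7 and 5355.7 in CON.

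Genes whose pattern lay nearest to each member were found by the Euclidean distance between centred log2 levels over the 6 arrays, among the same 9740 genes. Nearest to Tyrp1 were Serpinb6e (distance 0.29), Pmel (0.30) and Gsdma (0.33), and nearest to Pmel were Serpinb6e (0.24), Tyrp1 (0.30) and Gabrp (0.31). Mlana lay nearest to Krtap14 (0.31), a hair keratin-associated protein gene, S100a7a (0.41) and Gm94 (0.41). Dct, with its signal in CON, lay nearest to Lypd3 (0.38), Sult2b1 (0.72) and Sfn (0.76), and Tyrp1 was only at rank 286 from it. The distances rest on 1 array per point, and neighbouring values include the dim levels below detection.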

How the data were processed

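Total RNA from pooled dental tissue was hybridised to Illumina MouseRef-8 v2 BeadChips, 1 array for each of 6 groups. The authors deposited raw probe intensities with detection p-values from GenomeStudio (version not given in the sources used here) and a second set of normalised intensities, whose exact steps were not stated. The raw intensities were processed in R 4.3.3 with limma 3.58.1 (neqc: normexp background correction, offset 16, quantile normalisation, log2). Probes were named through the platform annotation: 23978 of 25697 had a single symbol, and the other 1719 did not and are unnamed here. A gene was represented by its probe with the highest mean. Detection required a p-value under 0.01, and genes were called at 1.5-fold, the fold of the study's methods, whose p-value threshold cannot be applied to 1 array per group. Genes detected on at least 1 array (9740) entered limma, with stage as a covariate and a Benjamini-Hochberg threshold of 0.05. The code was tested on simulated data.

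The text names the 6 members, the members of related lists that were called or define the lineage, a few markers of other cell types, and the 3 nearest genes by pattern. The members and lists were chosen with earlier results of these data known. Promoter sequences came from RefSeq (GRCm38.p6), and 4 of the 6 members matched. Alternatives tried were the deposited normalised intensities, no background correction, an offset of 50, median scaling, the mean over probes, no filter, detection on at least 3 arrays, a detection p of 0.05, a fold of 2, a variance trend, no stage term and leaving out the arrays of a stage. With 1 array per group, the number of arrays limits the precision, and spread between animals within a pool is not seen.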

Additional observations from a re-analysis of the deposited data

Results flagged for a closer look

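The KO minus CON difference was larger at Sec and Mat than at CL by the limma test of that difference for 4 genes named in the report. The excess was 5.24 for Tyrp1 (SE 0.44, adjusted p = 0.0163), 5.12 for Pmel (SE 0.50, adjusted p = 0.0237), 6.12 for Mlana (SE 0.53, adjusted p = 0.0181) and 5.03 for Tfap2b (SE 0.55, adjusted p = 0.0316), on the log2 scale over all 6 arrays. Each was detected only in KO at Sec and Mat and entered the test only through those arrays, so a positive difference was built into its entry. Without the detection filter, no gene passed (smallest limma adjusted p 0.107, with 1012 genes at an unadjusted p under 0.05). Tyrp1, Pmel and Mlana also did not pass on the deposited normalised intensities or without background correction.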

How the results depend on the processing

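The 4 detected members were higher in KO at Sec and Mat under each of the 7 alternatives run at each stage. The log2 difference ranged at Sec from 2.26 to 4.26 for Tyrp1, 2.51 to 2.82 for Dct, 2.42 to 4.34 for Pmel and 2.78 to 4.76 for Mlana, and at Mat from 2.70 to 4.55, 2.25 to 2.42, 3.14 to 5.02 and 3.50 to 5.41 in the same order of genes. For Tyrp1, Pmel and Mlana these values are lower bounds. The ranges of Tyrp1 and Pmel also cover their other probes, each taken alone. At CL, 1 member, Dct, was higher with median scaling (0.60), and none otherwise. With a fold of 2, 1 regulator was higher at Sec in place of 2, and 2 melanosome genes at Mat in place of 5. In the limma test of Sec and Mat against CL, 3 members and 126 genes passed, with 686 genes at an unadjusted p under 0.05. The counts were 0 members and 48 genes with the deposited normalised intensities, 0 and 46 without background correction, 0 and 0 without a filter (1012 genes at an unadjusted p under 0.05) and 0 and 0 among genes detected on at least 3 arrays (410 at an unadjusted p under 0.05), where Dct was the member tested. With median scaling, an offset of 50 or the mean over probes, 3 members passed. The cause of these losses was not tested. In the limma model over the 3 stages, leaving out the arrays of a stage gave 0 to 4 members and 0 to 405 genes, the higher values without CL. There, Tyrp1, Pmel and Mlana had entered only through the KO arrays at Sec and Mat that were left. Leaving out a stage was not run for the test against CL, which then has no residual degrees of freedom. The median difference of all genes was -0.16 at Sec and -0.20 at Mat with median scaling, against -0.10 and -0.11. The stage term of the model over 3 stages pairs KO with CON within a stage, and without it the model also called 0 members and 0 genes, with 557 genes at an unadjusted p under 0.05. Genes under the detection limit, Tyr and Mitf among them, have no fold at this signal over background.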
